A study of Danio rerio with 10 samples.

Results

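mir-122, the dominant microRNA of the liver, was followed through small RNA libraries of 10 zebrafish livers. It is 1 row of the deposited table, ENSDARG00000083634, among 272 rows whose symbol names a microRNA gene (called pre-miRNAs here, of which 208 had at least 1 count) and 32266 rows in all. ABC fish were 5 males at 4 months of age that carried Tg(fabp10a-pt-beta-cat), a transgene that places activated β-catenin under the hepatocyte promoter fabp10a, and their livers held hepatocellular carcinoma (HCC) by histology. WT fish were 5 non-transgenic wild-type male siblings of that age, whose livers had no significant abnormality by histology. Each library came from the liver of 1 fish, so the spread within a group is a spread between fish. The library numbers are 6 to 10 in ABC and 1 to 5 in WT, and they serve as names only.

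The name of the row needs care. A gene name table gives this Ensembl row the symbol mir124-1, and 0 rows of the table carry a mir-122 symbol. The row was taken as mir-122 because an earlier join of the study's list of pre-miRNAs with these counts placed dre-mir-122 on it by closeness of fold change and p, where another name lay nearly as close. The fold change of the row therefore says nothing about its name, and no sequence was at hand to check it. The counts themselves bear on the choice. mir-124 is known as a microRNA of neurons and mir-122 as one of hepatocytes, and the 5 other rows with a mir-124 symbol held 1 count together over the 10 fish, against 9496430 counts on this row. How reads that match several genes were counted is not given, so the counts of those other rows do not settle the name. RefSeq (assembly GRCz12tu) lists 1 mir-122 gene, inside the long non-coding RNA LOC141379988. The reads were aligned to GRCz10, and no Ensembl identifier links the RefSeq gene to this row. Whether other loci compete for its reads was therefore not checked. The protein-coding neighbours of the RefSeq gene, alpk2 and nedd4l, had 0 and 17 counts over the 10 fish.

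A microRNA is cut from a hairpin transcript by Drosha and Dicer, and the mature strand guides Argonaute to messenger RNAs that pair with its seed. In mice and humans miR-122 is made almost only by hepatocytes, where liver-enriched transcription factors such as HNF4A and CEBPA drive it, and it acts on lipid, cholesterol and iron metabolism. Mice without it develop fatty liver and liver tumours, and its level is low in a subset of human HCC.

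The depth of the libraries was 1236439 to 2408262 counts in ABC and 1423307 to 2609547 counts in WT. Pre-miRNAs took 93.1% to 94.5% of all counts in ABC and 94.7% to 97.5% in WT. A pair of libraries stood apart within their groups. ABC 8 had the highest share of mir-122 and of hepatocyte transcripts among ABC fish. WT 5 had the lowest pre-miRNA share among WT fish and the highest share of exocrine pancreas transcripts, 2.04% of the counts outside pre-miRNAs, against 0.139% to 0.373% in the other WT fish.

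mir-122 was the most abundant pre-miRNA in every fish, and it held a smaller share of the pre-miRNA counts in every ABC fish than in any WT fish. In ABC 6 to 10 it took 34.8%, 31.0%, 47.6%, 39.7% and 39.7% of the pre-miRNA counts. In WT 1 to 5 it took 70.1%, 70.0%, 68.4%, 65.8% and 74.5%. ABC 8 was the ABC fish nearest to WT, and WT 4 the WT fish nearest to ABC. The mean was 38.6 ± 6.23% in ABC and 69.8 ± 3.15% in WT (SD, n = 5 each), and the two-sided exact permutation test gave p = 0.00794, the smallest p that 5 fish against 5 can give (adjusted p = 0.0127 over 16 such measures). Many of the 16 are tied to this share. As a share of all counts of the library, the ranges were 29.3% to 44.4% in ABC and 64.2% to 70.5% in WT. In a bulk liver sample, fewer hepatocytes and less mir-122 per hepatocyte cannot be told apart.

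Counting error was small beside the spread between fish. The 95% Wilson interval of the share was 47.5% to 47.7% in ABC 8 and 74.4% to 74.6% in WT 5, and these intervals cover counting error only, since reads amplified by PCR without molecular identifiers are not independent molecules. Within a group, only ABC 9 (39.6% to 39.8%) and ABC 10 (39.6% to 39.8%), and WT 1 (70.0% to 70.2%) and WT 2 (70.0% to 70.1%), had intervals that overlapped. The counts behind the shares were 490101, 705054, 548695, 867692 and 495510 in ABC 6 to 10, against 971884, 1187026, 1321200, 1674583 and 1234685 in WT 1 to 5. The total of all pre-miRNA counts did not separate the groups, at 1152494 to 2275008 in ABC and 1386568 to 2543331 in WT (exact permutation test, p = 0.556).

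**Figure D1:**
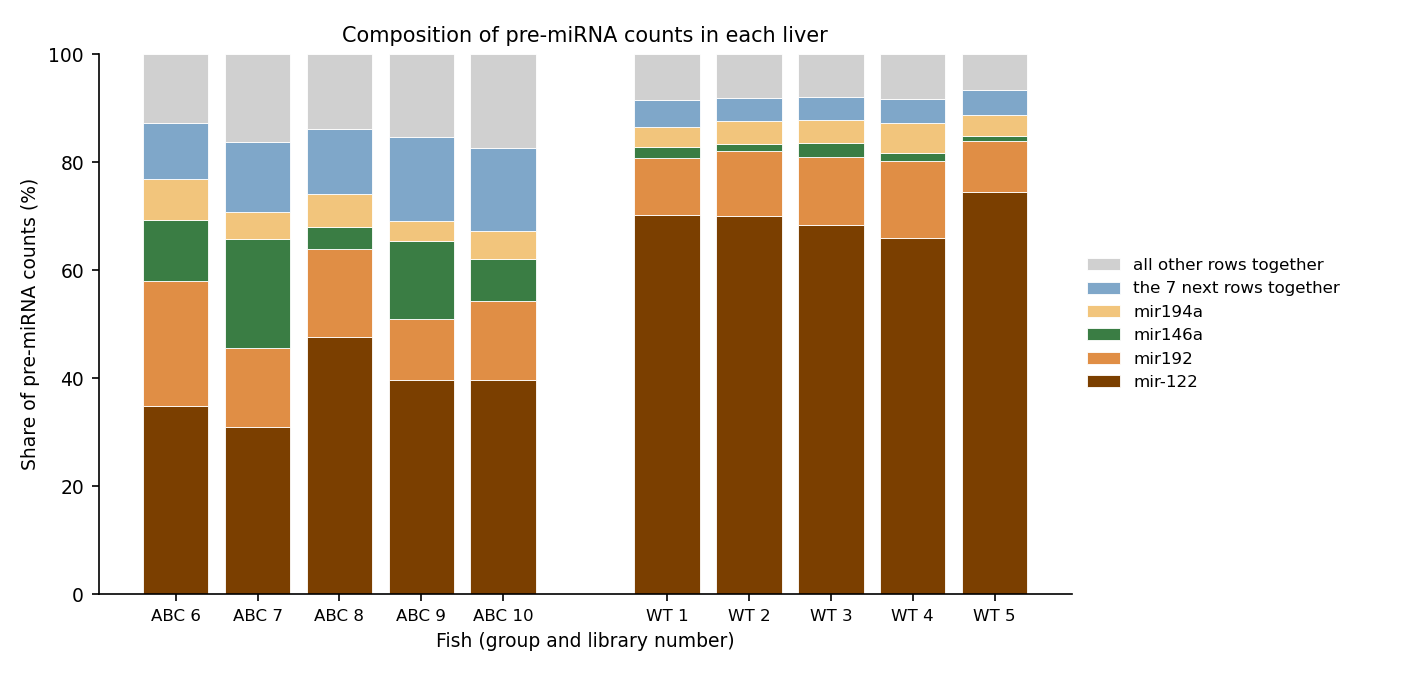
Stacked bars give the share of pre-miRNA counts (%) in each fish, ABC on the left and WT on the right, for mir-122, mir192, mir146a, mir194a, the 7 next rows together and all other rows together. mir-122 fills 31.0% to 47.6% of each ABC bar and 65.8% to 74.5% of each WT bar.

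Set against everything else in the library, mir-122 was outnumbered by the other pre-miRNAs in ABC and outnumbered them in WT. For each count on another pre-miRNA there were 0.535, 0.449, 0.909, 0.658 and 0.658 counts of mir-122 in ABC 6 to 10. The same ratio was 2.34, 2.34, 2.17, 1.93 and 2.92 in WT 1 to 5. All ABC fish lay below 1 and all WT fish above it. The log2 ratio averaged -0.68 ± 0.38 in ABC and 1.21 ± 0.22 in WT, a difference of -1.89 or a fold of 0.269 (SD, n = 5 each, two-sided exact permutation test, p = 0.00794). This ratio does not depend on how libraries are scaled. It is the mir-122 share of pre-miRNA counts in another form, so its p is not separate support. Against the features other than pre-miRNAs, which include fragments of messenger RNAs, the log2 ratio of mir-122 was 2.51 ± 0.23 in ABC and 4.43 ± 0.40 in WT, a difference of -1.91 (exact permutation test, p = 0.00794).

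The pre-miRNA counts were also spread over more rows in ABC. To reach 90% of the pre-miRNA counts took 14, 16, 13, 16 and 17 rows in ABC 6 to 10, against 8, 7, 7, 7 and 6 rows in WT 1 to 5. The effective number of rows, which is 2 raised to the Shannon entropy of the shares in bits, was 11.0 ± 1.51 in ABC and 4.16 ± 0.375 in WT (SD, n = 5 each, exact permutation test, p = 0.00794), and the groups did not overlap. With mir-122 taken out of the table this number was 17.1 ± 3.06 in ABC and 14.8 ± 1.44 in WT, with overlap between the groups (exact permutation test, p = 0.159). To reach 90% of the counts without mir-122 took 18, 20, 21, 20 and 24 rows in ABC 6 to 10. In WT 1 to 5 it took 25, 25, 24, 24 and 24 rows, so by that measure no ABC fish needed more rows than any WT fish.

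The next most abundant rows, by mean share over the 10 fish, were mir192, mir146a, mir194a, MIR92A1, MIR222, dre-mir-146b-1, MIRLET7G, MIR25, MIR143 and mir30d. mir192 and mir194a name microRNAs that are enriched in liver, gut and kidney of mammals. The mir-146 rows name a family that NF-κB induces in mammalian immune cells, and the pair shares much of its mature sequence, so the split of reads between them is uncertain. MIR92A1 and MIR25 name related microRNAs of the mammalian miR-17-92 and miR-106b-25 clusters, and MIR222 is known to repress the cell cycle inhibitor p27 in human cells. MIR143 is a microRNA of smooth muscle and other mesenchymal cells. As a share of pre-miRNA counts, these 10 rows together held 46.3 ± 6.13% in ABC and 22.3 ± 2.64% in WT (SD, n = 5 each, exact permutation test, p = 0.00794). This p is not separate support, because the rows were ranked with the ABC fish included and share 1 total with mir-122. Any count or sum over the 10 rows carries that choice. MIR222, for example, held 2.54% in ABC and 0.24% in WT.

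The second place was not the same row in every fish. mir192 followed mir-122 in 3 ABC fish and in all 5 WT fish, while mir146a came second in ABC 7 and ABC 9. mir-122 had 1.51, 1.53, 2.94, 2.74 and 2.73 counts for each count of the second row in ABC 6 to 10. In WT 1 to 5 it had 6.55, 5.79, 5.47, 4.60 and 7.92. Its lead was smallest in ABC 6 and ABC 7 and largest in WT 5, with no overlap between the groups. Against mir192 alone the ratio was 1.51, 2.14, 2.94, 3.54 and 2.73 in ABC 6 to 10, with the WT ratios as just given, and the log2 ratio averaged 1.304 ± 0.473 in ABC and 2.58 ± 0.29 in WT, a difference of -1.27 (SD, n = 5 each, exact permutation test, p = 0.00794).

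The size of the shift depended on the row that mir-122 was set against. For MIR222, mir-122 had 15.3 counts per count in ABC and 293 in WT (geometric means). For mir146a it had 3.75 in ABC and 46.2 in WT, and for dre-mir-146b-1 it had 18.7 in ABC and 203 in WT. These 3 ratios moved most. For mir192 the geometric mean was 2.47 in ABC and 5.97 in WT, for mir194a it was 7.11 in ABC and 16.2 in WT, and these moved least. The ratio was lower in every ABC fish than in any WT fish for 9 of the 10 rows (adjusted p = 0.00882 each over the 10, exact permutation test), where 57.3% of all 143 other tested pre-miRNAs gave such a ratio (1 count added to each). MIR143 was the exception, with ratios of 16.6 to 98.5 in ABC and 55.2 to 109 in WT (adjusted p = 0.0317), and the overlap came from ABC 8.

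**Figure D2:**
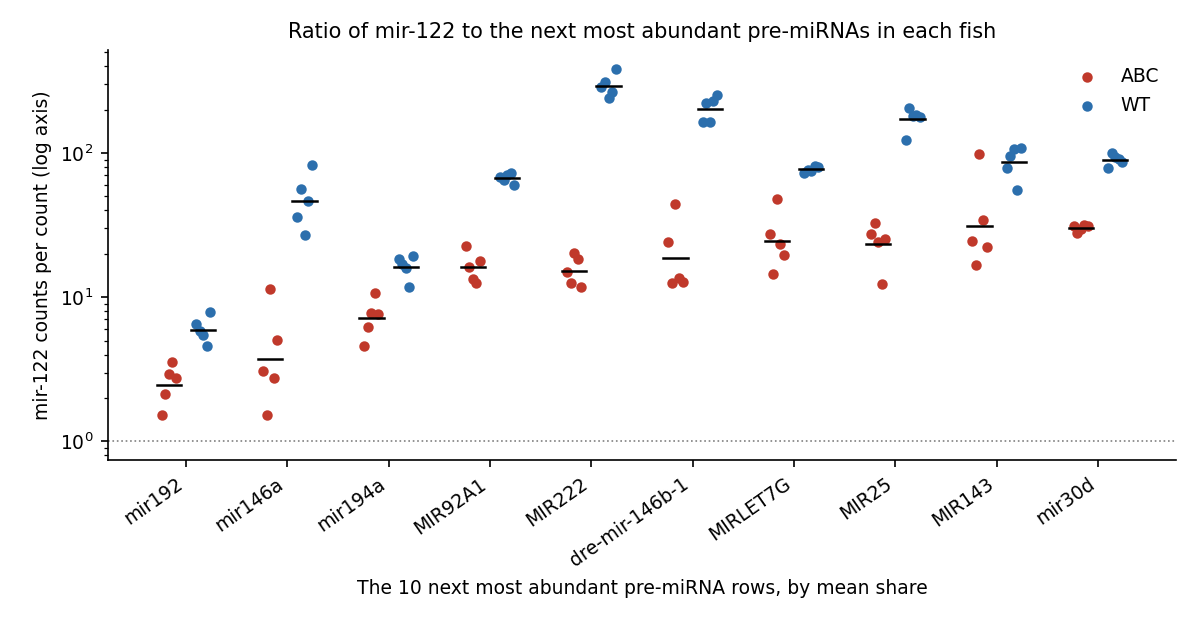
Points give the number of mir-122 counts per count of each of the 10 next most abundant rows in each fish (log axis), ABC left of WT, with black lines at the geometric means. Only for MIR143 do the groups overlap, through the ABC fish at 98.5.

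With mir-122 taken out of the total, mir192 and mir194a held a smaller share in ABC, and mir146a, MIR222 and dre-mir-146b-1 a larger one. mir192 then held 26.0 ± 6.99% of the remaining counts in ABC and 38.9 ± 2.55% in WT (SD, n = 5 each, exact permutation test, adjusted p = 0.0159 over the 10 rows). mir194a, which is transcribed with a mir-192 gene in mammals, held 9.06% in ABC and 14.3% in WT (adjusted p = 0.0159, exact permutation test). mir146a held 18.3% in ABC and 5.28% in WT (adjusted p = 0.0159, exact permutation test). MIR222 held 4.16% in ABC and 0.793% in WT, and dre-mir-146b-1 held 3.58% and 1.16% (adjusted p = 0.0159 each, exact permutation test). The other rows of the 10 did not pass the threshold (adjusted p of at least 0.0529, exact permutation test). Shares of 1 total are tied, so larger shares of some rows lower those of others. With mir-122 counted in the total, the shares in ABC and WT were 15.9% and 11.8% for mir192, 5.52% and 4.34% for mir194a, and 11.6% and 1.61% for mir146a, so the means of mir192 and mir194a were then higher in ABC. The groups overlapped in these shares of mir192 and mir194a.

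In the fit across pre-miRNAs, mir-122 was lower in ABC with an L2FC of -1.59 (SE 0.20, edgeR quasi-likelihood test, padj = 1.08e-04). Its normalized counts were 272595, 223075, 458825, 307706 and 252250 CPM (counts scaled to the library size) in ABC 6 to 10, and 869282, 887617, 828001, 857701 and 1125410 CPM in WT 1 to 5. The groups did not overlap, and ABC 8 and WT 5 were the highest of each. The value of WT 5 exceeds the nominal total because counts are divided by a scaled library size, and WT 5 had the lowest scaling factor of the 10 fish (0.662). Among the 144 pre-miRNAs tested, 19.4% were called lower in ABC and 16.7% had every ABC fish below every WT fish, so a lower call by itself does not set mir-122 apart. By padj it ranked 9 of 144.

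What the fit adds is its place among abundant rows. Of the 143 others, 11 had a lower L2FC than mir-122 and 132 a higher one, and their median L2FC was -0.10, which leaves mir-122 at -1.49 relative to them. Among the 49 rows with a mean count of at least 1000, 1 had a lower L2FC. It was mir107b, with an L2FC of -2.33 (SE 0.30, edgeR, padj = 1.18e-04) at 264 ± 98.1 CPM in ABC and 1333 ± 307 CPM in WT. Other rows lay close to mir-122, so its place depends on the count cut and on small differences. mir150, one of the 49, had an L2FC of -1.56 (SE 0.25), and mir125c, under the cut, had -1.61 (SE 0.19). The spread of mir-122 between fish of a group was below the median of the abundant rows. The SD of its log2 normalized count was 0.40 in ABC and 0.18 in WT, against medians of 0.52 in ABC and 0.29 in WT over the 49 rows. Of these rows, 12 had a lower SD than mir-122 in ABC and 7 in WT. A row that holds most of the total, as mir-122 did in WT, has little room to vary as a share. Its SD therefore does not compare directly with those of the other rows.

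**Figure D3:**
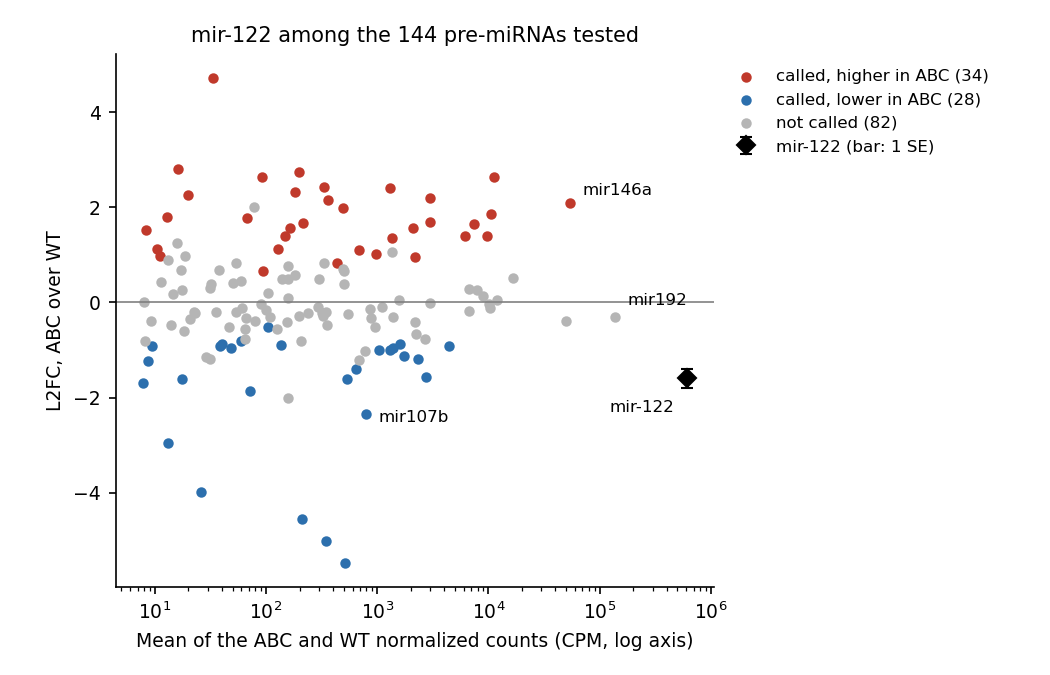
L2FC (ABC over WT) of the 144 tested pre-miRNAs against the mean of their ABC and WT normalized counts (CPM, log axis), with rows called higher in ABC (34), called lower in ABC (28) and not called (82). mir-122, the diamond with a bar of 1 SE, is the row farthest to the right and lies at -1.59, with mir107b the labelled row below it.

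Of the 10 next most abundant rows, 4 were called higher in ABC, where 23.6% of all tested pre-miRNAs were, and 0 were called lower with TMM scaling (edgeR, L2FC of at least 0.5 in size and padj under 0.05). At an unadjusted p under 0.05 the count of lower rows was also 0, as it was with DESeq2. The 10 rows were ranked over both groups, so a row high in ABC could enter through the ABC fish. In WT, MIR222 (3104 CPM), dre-mir-146b-1 (4508 CPM) and MIR25 (5407 CPM) lay below MIR26A2 at ENSDARG00000080579 (8615 CPM), which is outside the 10. The counts of higher and lower rows among the 10 therefore carry that choice and are not a separate result. MIR222 had the highest L2FC of the 10 at 2.64, followed by mir146a at 2.09 (edgeR, padj = 7.90e-04), dre-mir-146b-1 at 1.86 (edgeR, padj = 1.18e-04) and MIR25 at 1.39 (edgeR, padj = 0.00613). The remaining 6 had L2FC values between -0.39 and 0.52. The scaling of the libraries moved these values. Scaled to the total pre-miRNA count alone, mir-122 had an L2FC of -0.86, the median of the other rows was 0.67, and 65 rows were called higher and 10 lower, against 34 higher and 28 lower with TMM scaling. Scaled to the total without mir-122, its L2FC was -1.87 and the median of the others -0.34, with 30 rows called higher and 39 lower. The calls of the 10 rows changed with these scalings. With the total without mir-122, mir192 (L2FC -0.58, edgeR, padj = 0.0218) and mir194a (L2FC -0.66, padj = 0.0175) were called lower. With the total pre-miRNA count alone, MIR92A1 (L2FC 1.25, edgeR, padj = 9.16e-04), MIRLET7G (L2FC 0.85, padj = 0.00581) and mir30d (L2FC 0.71, padj = 0.00317) were called higher as well.

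The rows whose pattern over the 10 fish was most like that of mir-122 were found by the root mean square difference of centred log2 normalized counts. Among 143 pre-miRNAs the nearest was mir125c at 0.26, then mir100-2 at 0.35, dre-mir-29b-1 at 0.41, mir22b at 0.42 and MIR99A at 0.43, where the median row differed by 1.06. mir125c had 267 ± 49.7 CPM in ABC and 813 ± 68.3 CPM in WT, an L2FC of -1.61. MIR99A had 1403 ± 171 CPM in ABC and 3214 ± 648 CPM in WT. mir-99, mir-100 and mir-125 belong to families that lie in shared clusters with let-7 in vertebrates. The difference between the groups enters this measure, and all 5 are far less abundant than mir-122. Among 338 other features the nearest were ENSDARG00000082290 at 0.38 and si:ch211-129n18.1 at 0.43, followed by ENSDARG00000083826 at 0.52, si:ch211-198a12.6 at 0.52 and the small nucleolar RNA SNORD30 at 0.54.

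Hepatocyte transcripts, read here as the fragments of messenger RNA that a small RNA library holds, were in part lower in ABC as well. Of 86 symbols in the list, 71 matched a row, 68 had a count and 32 passed the filter on low counts. A row low in ABC could pass this filter through the WT fish alone, as apcs did (1 to 7 counts in ABC and 9 to 116 in WT). In the fit across all features 17 of the 32 were called lower in ABC, 0 were called higher and 15 were not called (edgeR), where 11.5% of the 338 tested features outside pre-miRNAs were called lower. 30 of the 32 had an L2FC below 0, and 0 were higher at an unadjusted p under 0.05 or with DESeq2, which called 24 lower. Every ABC fish lay below every WT fish for 11 of the 32, where 6.51% of those features did. The median L2FC of the 32 was -1.68, and that of all features tested was 0.17. In the same fit mir-122 had an L2FC of -1.60 (SE 0.22, edgeR, padj = 8.03e-04), and 18 of the 32 hepatocyte transcripts had a lower L2FC. ABC 8 weighed on this count: without it 27 of 36 were called lower, where 17.1% of the features outside pre-miRNAs were, and without WT 5 it was 13 of 32, where 8.43% were.

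The most abundant members show how much single fish differ. tfa, which encodes transferrin, had 345, 180, 380, 235 and 547 counts in ABC 6 to 10, against 456, 545, 235, 797 and 3143 in WT 1 to 5. WT 5 alone held most of the WT counts, and the call (L2FC -1.91, edgeR, padj = 0.0328) was lost without it (padj = 0.0756) and without ABC 6, ABC 7 or ABC 9. apobb.1, an apolipoprotein B gene, had 289, 241, 102, 64 and 267 counts in ABC, against 380, 509, 259, 255 and 2421 in WT (L2FC -2.40, edgeR, padj = 0.0190), and without WT 5 its L2FC was -1.63 (padj = 0.0300). c3a.1, a complement C3 gene, had 69, 76, 131, 59 and 116 counts in ABC, against 134, 133, 199, 423 and 1049 in WT (L2FC -2.36, edgeR, padj = 0.0111). apoa1b, an apolipoprotein A-I gene, had 93, 51, 70, 36 and 58 counts in ABC, against 126, 89, 116, 92 and 929 in WT (L2FC -2.45, edgeR, padj = 0.0196), and without WT 5 its L2FC was -1.503 (padj = 0.0329). fetub, a fetuin B gene named outside the rule, had 36, 58, 256, 56 and 135 counts in ABC, against 121, 130, 69, 105 and 583 in WT. It was not called (L2FC -1.12, SE 0.73, edgeR, padj = 0.264), and ABC 8 and WT 5 were the highest of each group.

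apoa2 departed from this pattern through ABC 8. It encodes an apolipoprotein A-II and had 83, 65, 254, 52 and 54 counts in ABC, against 159, 150, 145, 132 and 824 in WT. It was not called (L2FC -1.69, edgeR, padj = 0.0872), and without ABC 8 it was (L2FC -2.72, padj = 0.00399). fabp10a, named outside the rule because its promoter drives the transgene, had 96, 31, 198, 65 and 86 counts in ABC, against 133, 69, 38, 56 and 261 in WT (L2FC -0.61, SE 0.68, edgeR, padj = 0.535).

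**Figure D4:**
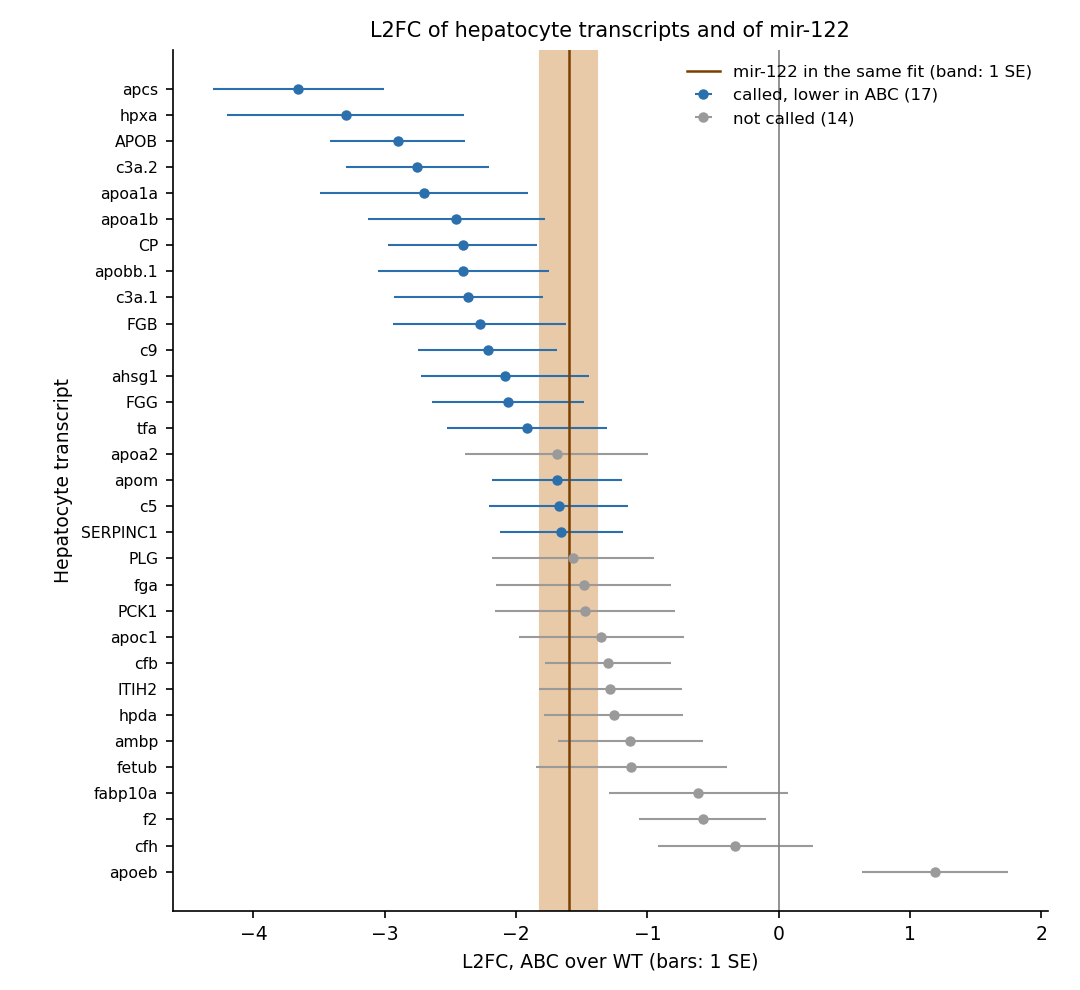
L2FC (ABC over WT, bars of 1 SE) of 31 of the 32 tested hepatocyte transcripts, with those called lower in ABC (17) and those not called (14), and a brown line with a band of 1 SE for mir-122 in the same fit at -1.60. 18 of the transcripts lie to the left of the line, and apoeb lies to the right of 0.

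Summed over the list, hepatocyte transcripts made up 1.79%, 1.02%, 5.53%, 1.13% and 2.56% of the counts outside pre-miRNAs in ABC 6 to 10, against 8.25%, 5.87%, 3.78%, 5.52% and 15.7% in WT 1 to 5. ABC 8 lay among the WT fish and the other 4 ABC fish lay below all of them. The means were 2.41 ± 1.85% in ABC and 7.83 ± 4.69% in WT (SD, n = 5 each, two-sided exact permutation test, p = 0.0238, adjusted p = 0.0317 over the 16 measures). Many of those measures are tied to the mir-122 share and have the smallest p possible, so the adjustment corrects little. As a share of all counts without mir-122 the difference was no longer past the threshold (-0.69 points, exact permutation test, p = 0.0794). WT 5 held 55.0% of all hepatocyte counts in WT, and ABC 8 held 39.9% of those in ABC.

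The fish fall into 2 separate groups of 5, so no correlation of mir-122 with hepatocyte transcripts was computed, and the values are set side by side. In WT, the order of the fish by hepatocyte share was 5, 1, 2, 4 and 3, and by mir-122 share it was 5, 1, 2, 3 and 4. In ABC, the order by hepatocyte share was 8, 10, 6, 9 and 7, and by mir-122 share it was 8, 9, 10, 6 and 7. The fish with the highest hepatocyte share had the highest mir-122 share of pre-miRNA counts in each group. This did not hold for mir-122 set against the features outside pre-miRNAs, where WT 5 had the lowest ratio of the WT fish (13.2) and ABC 9 (6.84) lay above ABC 8 (6.54). The hepatocyte share of WT 5 was not high alone, as other shares of the counts outside pre-miRNAs were highest there among WT fish. They include exocrine pancreas (2.04%), muscle (0.0933%), biliary and intestinal (0.102%) and stellate and fibroblast transcripts (0.0311%), but not endothelial transcripts or β-catenin targets. ABC 8 and WT 4 had nearly the same hepatocyte share, 5.53% and 5.52%, and mir-122 shares of 47.6% and 65.8%. These fish are 1 pair, picked for this closeness, which depends on the denominator. As a share of all counts without mir-122, hepatocyte transcripts took 0.676% in ABC 8 and 0.391% in WT 4.

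Counted against hepatocyte transcripts, mir-122 did not separate the groups. Each hepatocyte count went with 262, 520, 118, 604 and 213 counts of mir-122 in ABC 6 to 10, against 321, 374, 622, 459 and 84.2 in WT 1 to 5. The lowest ratios belonged to ABC 8 and WT 5, the fish with the most hepatocyte transcripts. The log2 ratio was 8.18 ± 0.97 in ABC and 8.28 ± 1.11 in WT, a difference of -0.10 (SD, n = 5 each, two-sided exact permutation test, p = 0.881). Over the fits that omitted 1 fish, the difference ran from -0.57 to 0.23. With SDs of this size, the p does not show that the groups have the same ratio. Against all other features outside pre-miRNAs, the log2 ratio of hepatocyte transcripts was -5.64 ± 1.02 in ABC and -3.73 ± 0.85 in WT. The difference was -1.90 (SD, n = 5 each, exact permutation test, p = 0.0238), and the groups overlapped. This denominator leaves out the hepatocyte transcripts, unlike the one used for mir-122 against the features outside pre-miRNAs, so the 2 differences do not compare directly.

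**Figure D5:**
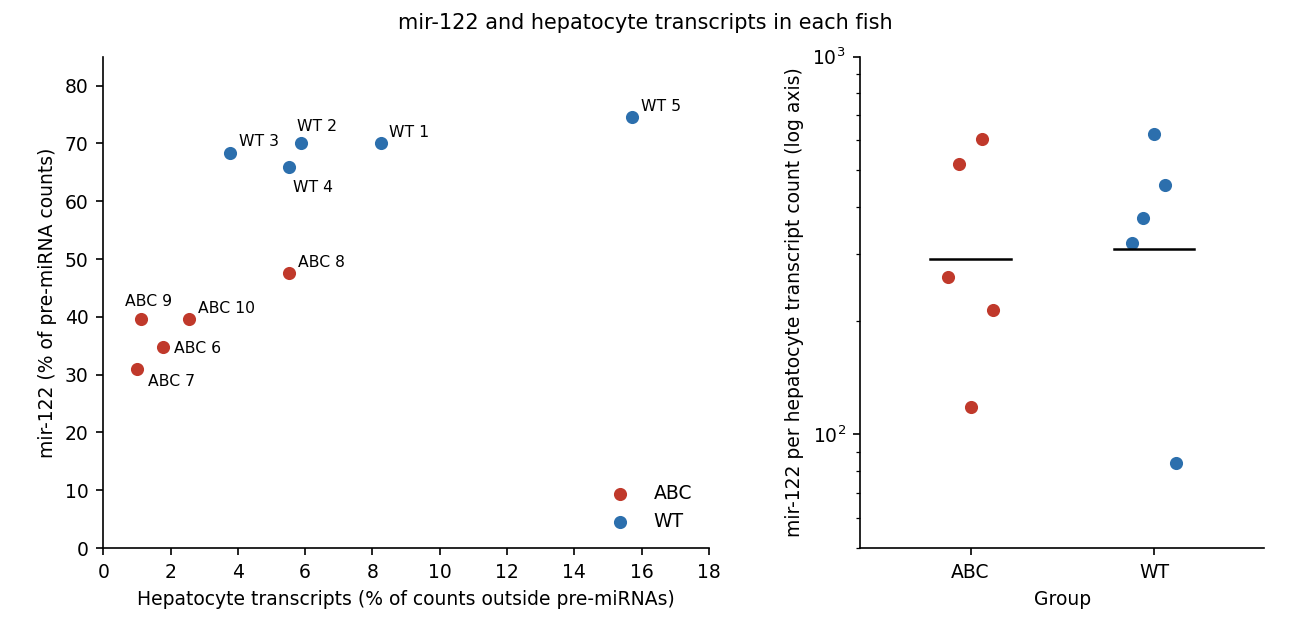
Left, mir-122 share of pre-miRNA counts (%) against the hepatocyte transcript share of counts outside pre-miRNAs (%) in each fish. Right, mir-122 counts per hepatocyte transcript count (log axis), ABC left of WT, with black lines at the geometric means. On the left ABC 8 reaches the hepatocyte shares of WT fish at 5.53% but not their mir-122 shares. On the right the ABC fish (118 to 604) lie within the range of the WT fish (84.2 to 622).

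Genes known to act on mir-122 or to be acted on by it had few counts in these libraries. Counts outside pre-miRNAs numbered 83945 to 133254 per fish in ABC and 36739 to 93221 in WT, so raw counts of the groups do not compare directly. Of 12 matched rows for transcription factors that drive mir-122 in mammals, 1 passed the filter. It was HNF4A, the nuclear receptor of hepatocyte identity, at 8.82 ± 3.94 CPM in ABC and 3.72 ± 2.80 CPM in WT (L2FC 1.31, SE 0.63, edgeR, padj = 0.134). HNF4A had 10 to 31 counts per fish in ABC and 0 to 7 in WT, so it passed the filter on low counts through the ABC fish. CEBPB, a liver transcription factor of the acute phase, had 4 to 20 counts per fish in ABC and 2 to 6 in WT. Of 17 matched rows for messenger RNAs that miR-122 targets in mammals, 15 had a count and 0 passed the filter on low counts, so none was tested at any level. They summed to 113 counts in ABC and 70 in WT. As a share of the counts outside pre-miRNAs the median was 0.0187% in ABC (0.0153% to 0.0369%) and 0.0167% in WT (0.0121% to 0.0343%). CCNG1, which encodes cyclin G1, had 9, 9, 18, 12 and 4 counts in ABC 6 to 10, against 1, 2, 2, 2 and 16 in WT 1 to 5. Of 9 matched rows for β-catenin and its targets 0 passed the filter, with 94 counts in ABC and 31 in WT, among them CTNNB1 (1 to 19 in ABC and 0 to 8 in WT) and CCND1, which encodes cyclin D1 (1 to 10 in ABC and 0 to 1 in WT). Together these rows took 0.00867% to 0.0262% of the counts outside pre-miRNAs in ABC and 0.00712% to 0.013% in WT.

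Other microRNAs linked to hepatocytes were called in both directions. Besides mir-122, 8 rows of that list passed the filter, of which 2 were called higher and 2 lower in ABC, near the shares of all tested pre-miRNAs called higher (23.6%) and lower (19.4%). MIR101-1, a repressor of the methyltransferase EZH2 in human cells, had an L2FC of 1.70 (edgeR, padj = 6.33e-04), and mir194b had 2.40 (edgeR, padj = 0.00539). mir22b had -0.89 (edgeR, padj = 0.00600) and MIR22 had -0.90 (edgeR, padj = 0.0233), and both lost the call when scaled to the total pre-miRNA count or with TMM over all features (padj = 0.135 and 0.0641). MIR22 also lost it with upper-quartile factors (padj = 0.0649) and without ABC 7, ABC 10 or WT 2 (padj of at most 0.0581). mir192 and mir194a were not called, except as lower when scaled to the total without mir-122.

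Markers of other cells moved between the groups beside mir-122. All 3 exocrine pancreas microRNAs were called lower in ABC, where 19.4% of all tested pre-miRNAs were. They were dre-mir-216b (L2FC -5.48, edgeR, padj = 1.56e-04), MIR217 (L2FC -5.01) and MIR216A (L2FC -3.99). MIR216A had 1 to 12 counts per fish in ABC and 30 to 120 in WT, so it passed the filter on low counts through the WT fish. Exocrine pancreas transcripts, with a count on 24 of 25 matched rows and 0 that passed the filter, took 0.00945% to 0.0242% of the counts outside pre-miRNAs in ABC and 0.139% to 2.04% in WT. CELA1, an elastase, had 1 to 5 counts per fish in ABC and 4 to 334 in WT, and prss1, a trypsinogen, had 1 to 4 in ABC and 6 to 302 in WT. WT 5 had the most exocrine transcripts, but the 3 exocrine microRNAs were highest in WT 1. In WT 1 and WT 5, dre-mir-216b had 2969 and 835 CPM, MIR217 had 1722 and 473 CPM, and MIR216A had 107 and 50.1 CPM. Without WT 1 the L2FC of mir-122 was -1.61 (edgeR, padj = 3.34e-04), and without WT 5 it was -1.45 (padj = 3.37e-04). Without both ABC 8 and WT 5 it was -1.77 (padj = 2.71e-05).

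Of 5 tested microRNAs of epithelial cells, the mir-200 family, 3 were called higher in ABC, where 23.6% of all tested pre-miRNAs were. They were mir200a (L2FC 1.65, edgeR, padj = 1.41e-04), MIR200B at ENSDARG00000081868 (L2FC 1.399, padj = 0.00119) and dre-mir-429 (L2FC 1.03, padj = 0.00528). MIR200B at ENSDARG00000080713 (L2FC -1.22, edgeR, padj = 0.134) and mir141 (L2FC 0.0427, padj = 0.952) were not called. WT 4 stood apart in both of these rows. It had 2794 CPM in that MIR200B row (174 to 849 CPM in the other WT fish) and 4190 CPM in mir141 (385 to 1582 CPM). Of 2 tested biliary and intestinal transcripts, the keratin krt18a.1 was called higher (L2FC 2.67, edgeR, padj = 0.00738), where 16.6% of the tested features outside pre-miRNAs were, and without ABC 8 its L2FC was 1.86 (padj = 0.00490). It had 40 to 171 counts per fish in ABC and 6 to 17 in WT, and it passed the filter on low counts through the ABC fish. The other tested row, the keratin krt8, was not called (L2FC 1.42, edgeR, padj = 0.119). That list took 0.1001% to 0.355% of the counts outside pre-miRNAs in ABC and 0.0438% to 0.102% in WT. Of its 1003 counts over the 10 fish, krt18a.1 held 449 and krt8 held 362. These shares are therefore mostly those of the keratins and not of the list as a whole. Of 4 tested leukocyte microRNAs, mir150, a microRNA of lymphocytes, was called lower (L2FC -1.56, edgeR, padj = 3.58e-04), a share of the list near the 19.4% of all tested pre-miRNAs. MIR223 (L2FC 0.82, edgeR, padj = 0.0568), mir155 (L2FC 0.76, padj = 0.0761) and MIR142 (L2FC -0.29, padj = 0.395) were not called. Of 8 matched rows of muscle microRNAs, 1 was tested, mir1-2. It was called lower (L2FC -2.95, edgeR, padj = 0.00528), where 19.4% of all tested pre-miRNAs were. It had 2 to 16 counts per fish in ABC and 15 to 58 in WT, so it passed the filter on low counts through the WT fish. Muscle transcripts such as ckmb and ckma, the muscle creatine kinases, had 5 counts in ABC and 104 in WT in all, most of them in WT 5.

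The endothelial microRNA MIR126 was not called (L2FC -0.31, edgeR, padj = 0.147). Every ABC fish (1155 to 1335 CPM) still lay below every WT fish (1350 to 1901 CPM) in MIR126, as for 16.7% of all tested pre-miRNAs. The 3 tested rows of the neural list were not called either. They were mir128-1 (L2FC -0.42, edgeR, padj = 0.301), MIR128-2 (L2FC -0.41, padj = 0.335) and mir9-7 (L2FC -0.35, padj = 0.707). Leukocyte transcripts (43 counts in ABC and 36 in WT, led by cd74a and csf1ra), endothelial transcripts (30 in ABC and 21 in WT, led by stab1 and cdh5) and transcripts of stellate cells and fibroblasts (34 in ABC and 54 in WT, led by col1a1a and COL1A2) were too sparse to test. As a share of the counts outside pre-miRNAs, the medians in ABC and WT were 0.00881% and 0.0125% for leukocyte transcripts. They were 0.00477% and 0.00644% for endothelial transcripts, and 0.0060% and 0.0136% for those of stellate cells and fibroblasts. Erythrocyte transcripts had 3 counts in ABC and 23 in WT, led by hbaa1 and alas2, and the 2 rows of erythrocyte microRNAs, mir144 and mir451, had 0 counts in all fish. The part that any of these markers has in the lower share of mir-122 was not tested.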

How the data were processed

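Small RNA of 10 livers (5 ABC, 5 WT, 1 fish per library) was prepared with a NEBNext small RNA kit and sequenced as single reads by the authors, who aligned it to GRCz10 and counted it using miRBase. The submitters' processing notes name Novoalign and featureCounts without versions. The deposited file holds raw counts per Ensembl gene, with no normalization, and all 10 of its sample columns were used. How reads that match several genes or either strand were counted is not given in the sources used here. Symbols came from a gene name table (26433 of 32266 rows), and pre-miRNAs are rows whose symbol names a microRNA gene. Sequences and coordinates were not used here.

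Counts were tested with edgeR 4.0.16 in R 4.3.3 (filterByExpr defaults, TMM factors, quasi-likelihood test, Benjamini-Hochberg adjustment) on the 144 pre-miRNAs that passed the filter, and on 481 features of all types for hepatocyte and other transcripts. Calls needed padj under 0.05 and an L2FC of at least 0.5 in size, the thresholds of the study. Shares and ratios were set against each other in exact permutation tests, two-sided, over fish (scipy 1.17.1), with 252 splits. Groups followed the genotype in the labels. DESeq2 1.42.0, other scalings and filters, and leaving out each fish were alternatives. The scripts were tested on simulated data. Likeness used log2 CPM with a prior count of 2.

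Rows named are mir-122, the 10 next most abundant pre-miRNAs, the 5 pre-miRNAs and 5 other features most like it, the 6 hepatocyte transcripts with the highest counts, and of each other list the members called, or the 2 with the highest counts. Some rows that this rule names are not reported here. fabp10a, fetub, krt8, mir107b and the uncalled mir-200 and leukocyte microRNAs were named after their values were seen. The members, lists and tests were chosen with earlier results of these data known.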

Additional observations from a re-analysis of the deposited data

Results flagged for a closer look

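Of 66 groups of 5 fish examined over 33 measures, 9 had a fish far from the other 4 by Dixon's test, where chance gives about 3.3. All 9 concern ABC 8 or WT 5. In ABC 8, apoa2 had 30.3 counts per 10000 counts outside pre-miRNAs (other ABC fish 4.10 to 7.91), and mir30d had 15525 CPM (8030 to 9786 CPM).

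In WT 5, mir-122 had 1125410 CPM (other WT fish 828001 to 887617 CPM) and MIR92A1 had 18739 CPM (11683 to 13698 CPM). tfa had 337 counts per 10000 counts outside pre-miRNAs (41.9 to 124.1) and apoa1b had 99.7 (13.9 to 34.3). Exocrine pancreas transcripts took 2.04% of the counts outside pre-miRNAs (0.139% to 0.373%), and pre-miRNAs took 94.7% of all counts (96.9% to 97.5%). The log2 ratio of mir-122 to features outside pre-miRNAs was 3.73 (4.46 to 4.73), so WT 5 was the WT fish with the highest mir-122 share of pre-miRNA counts and the lowest ratio of mir-122 to everything outside them.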

How the results depend on the processing

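The L2FC of mir-122 was negative and called under all scalings, filters, tests and omissions of a fish that were run, from -0.86 with the total pre-miRNA count alone to -1.87 with the total without mir-122, an alternative added after seeing the data. Leaving out each fish gave -1.79 to -1.45 for its L2FC, -33.5 to -29.3 points for its share, -2.03 to -1.77 for its log2 ratio to the other pre-miRNAs and -1.40 to -1.10 for that to mir192 (exact permutation test, p = 0.0159 each, the smallest that 4 against 5 can give). Called pre-miRNAs numbered 62, with 54 to 65 when a fish was left out, 64 with DESeq2, 75 with the total count alone and 41 (28 higher, 13 lower) with TMM over all features. Called hepatocyte transcripts numbered 17, with 13 to 27 when a fish was left out, the highest without ABC 8. The median L2FC of the 10 next most abundant rows was 0.28, with 0.18 to 0.46 when a fish was left out, 1.05 with the total pre-miRNA count alone, 0.56 with TMM over all features and 0.0171 with the total without mir-122.

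The hepatocyte share differed by -6.44 to -3.45 points when a fish was left out, and as a share of all counts without mir-122 by -0.69 points, no longer past the threshold (exact permutation test, p = 0.0794). The log2 ratio of mir-122 to hepatocyte transcripts, never past the threshold, ran from -0.57 to 0.23 when a fish was left out, above 0 without ABC 8, ABC 10, WT 3 or WT 4. Rows near 0 that were not called changed sign as well. With the total pre-miRNA count alone, mir192 was at 0.43, mir194a at 0.35, MIR143 at 0.70 and mir30d at 0.71. MIR143 was also at 0.0721 with upper-quartile factors, 0.16 with TMM over all features and 0.0025 with every pre-miRNA tested, and mir30d at 0.0949, 0.17 and 0.0880 under these. MIRLET7G was at -0.21 with the total without mir-122. When a fish was left out, MIRLET7G ran from -0.0551 to 0.20, MIR143 from -0.26 to 0.10 and mir30d from -0.24 to 0.14. The cause was not tested. Leaving out ABC 8 and WT 5 together was added after seeing the data.

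No paired analysis was possible because the library numbers 1 to 10 are not shared between ABC and WT. Depth limits the regulators and targets of mir-122, nearly all of which fell under the count filter, but not mir-122 itself. All values are relative to other RNA of the same library, with no spike-in, so an absolute level per cell or per liver was not measured here.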
